A study of Mus musculus with 9 samples.

Results

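The 6 transcripts Inpp4b, Calcrl, Ccbe1, Cyp7b1, Bst1 and Slco4a1 were followed across 2 stably transfected lines of a mouse pancreatic cancer cell and its control. The 6 genes belong to 18193 genes with a probe set assigned to 1 gene, and 15235 genes reached the filter used for testing (3 or more arrays with a log2 value of 5 or above). They had been picked because they stood far from control cells in the same direction in both transfected lines, so those distances chose them and are given as description. All groups were made from the 170#3 line, of mixed C57BL6, FVB and 129Sv background, with 3 arrays per group and 9 in all. One group expressed beta-catenin (Ctnnb1), the co-activator that TCF/LEF factors recruit in Wnt signalling. Another expressed ICAT (Ctnnbip1), a small protein that occupies beta-catenin and keeps it from TCF. The last carried a control transfection, and all cells were grown as monolayers in serum-containing medium. The labels do not name the promoter of a transgene or say whether a line is 1 clone or a pool, so clone and transgene cannot be told apart.

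The genes act in separate processes. Inpp4b encodes a phosphatase of inositol lipids that limits signalling downstream of PI3-kinase, and Calcrl encodes the receptor that binds adrenomedullin or CGRP when paired with a RAMP protein. Ccbe1 encodes a secreted protein that helps the protease ADAMTS3 mature the lymphatic growth factor VEGF-C. Cyp7b1 encodes an oxysterol hydroxylase, Bst1 (CD157) a surface enzyme of NAD metabolism found on stromal and myeloid cells, and Slco4a1 an organic anion transporter that can carry thyroid hormone.

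In both lines Inpp4b, Calcrl, Ccbe1 and Slco4a1 lay below control and Cyp7b1 and Bst1 above it, each by more than 2-fold. The lines differed from each other in how far. Ccbe1, Slco4a1 and Bst1 were lower in beta-catenin than in ICAT cells. Calcrl was near or under the limit of 5 in both, where its order is not sure, whereas Inpp4b and Cyp7b1 did not pass the test between the lines. Around them, the RAMP gene Ramp3 fell in both lines, and the growth factor gene Vegfd rose in both. The growth factor gene Vegfc was also higher in both, in ICAT cells by at least 1.27-fold. Its control arrays lay under 5, so it was tested only through its transfected arrays.

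Array medians lay between 6.21 and 6.29 on the log2 scale, and no arrays were identical. The median SD per gene was 0.0746 in beta-catenin, 0.121 in ICAT and 0.0567 in control cells, so ICAT values carried most error. Both comparisons with control used the same 3 control arrays, so a shared direction is not seen independently in each. The 6 members were chosen by their distance from control on these arrays, so no test against control is given for them. Genes with an adjusted p under 0.05 by limma were called. Of all tested genes, 15.4 percent were lower and 19.6 percent higher in beta-catenin cells. In ICAT cells 18.5 percent were lower and 18.7 percent higher. For all 6 members, neither line overlapped with the control arrays. This also held for 54.1 percent of all tested genes for beta-catenin and 46.2 percent for ICAT. Of all tested genes, 4.63 percent lay at least 2-fold from control in beta-catenin cells and 2.97 percent in ICAT cells. Log2 expression was not scaled for probe affinity, so levels are compared between groups and not between genes. In bulk RNA, fewer cells with a transcript and less of it per cell cannot be told apart.

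**Figure D1:**
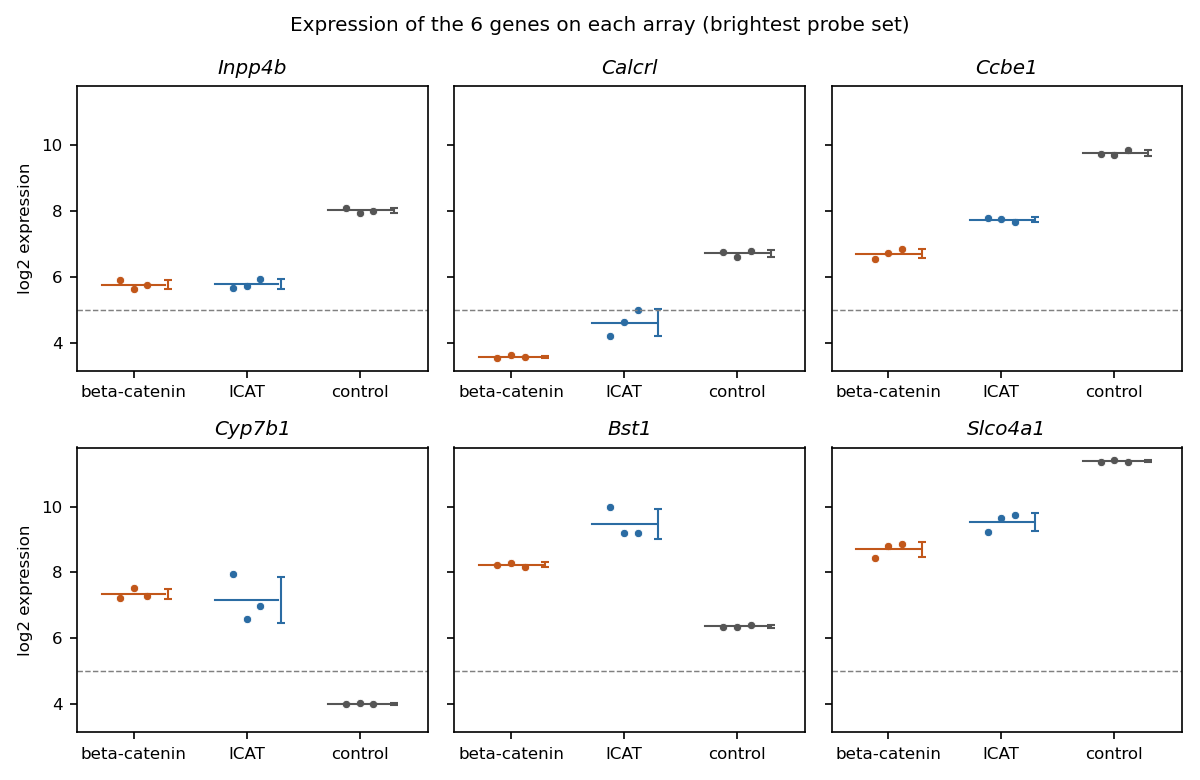
Log2 expression (y axis, shared) of the brightest probe set of each of the 6 genes on every array (points) in beta-catenin, ICAT and control cells, with group means (lines), SD (bars, n = 3) and the filter limit of 5 (dashed). Both transfected lines lie below control in Inpp4b, Calcrl, Ccbe1 and Slco4a1 and above it in Cyp7b1 and Bst1, and ICAT arrays of Cyp7b1 spread from 6.59 to 7.96.

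The members were measured by 16 probe sets, of which 12 passed the filter. Of the 10 beside the brightest of each gene, 6 passed, and all 6 lay on the same side of control as the brightest in both lines. For some of them the filter fixed that side. The dim Ccbe1 probe set passed only through its control arrays. Those of Cyp7b1 and Bst1 passed only through transfected arrays. The one of Inpp4b overlapped with control in ICAT cells. The other 4 lay under 5 on every array, and values there have no sure order. Calcrl was kept in the tests through its control arrays and Cyp7b1 through its transfected arrays, so each had to differ between groups to be tested at all.

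**Figure D2:**
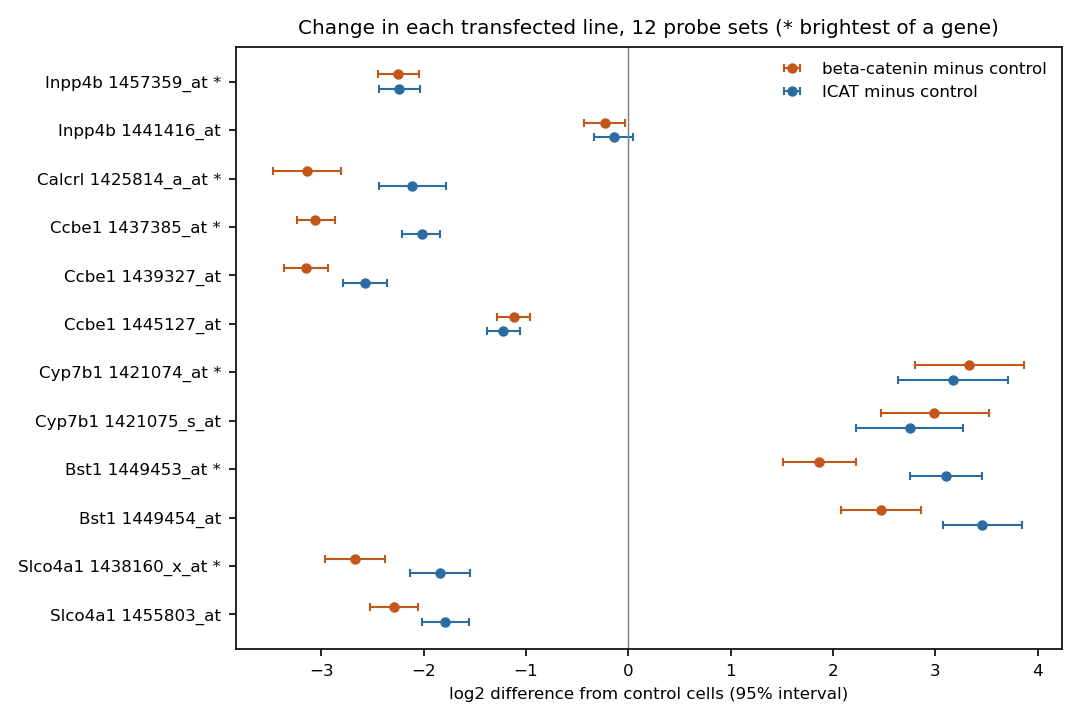
Log2 difference from control cells (x axis) in beta-catenin and ICAT cells for the 12 probe sets that passed the filter, with 95% intervals from a limma fit over all probe sets, and stars on the brightest probe set of a gene. The genes were chosen by their distance from control on these arrays, so the intervals are not a test against control. The other Inpp4b probe set lies at -0.23 and -0.14, near 0, while those of Cyp7b1, Bst1 and Slco4a1 lie near the brightest one of their gene.

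The stretch before the annotated start is shown for 2 of the lower genes, Slco4a1 and Calcrl, because its base content differs between them. Promoters from RefSeq (build GRCm38.p6) were found for Slco4a1, Calcrl and Inpp4b, and only bases outside the annotated gene are printed, with CG pairs in capitals (marked after the sequences were seen).
Slco4a1, chr2:180455995-180456225, plus strand: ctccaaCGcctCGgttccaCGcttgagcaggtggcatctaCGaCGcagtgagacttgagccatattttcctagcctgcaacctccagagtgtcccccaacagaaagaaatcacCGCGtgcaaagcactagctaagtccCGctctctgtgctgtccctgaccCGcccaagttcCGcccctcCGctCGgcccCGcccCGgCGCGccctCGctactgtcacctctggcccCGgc
Calcrl, chr2:84425406-84425516, minus strand: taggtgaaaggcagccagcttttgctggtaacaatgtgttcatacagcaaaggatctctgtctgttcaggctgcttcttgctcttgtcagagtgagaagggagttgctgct
The Slco4a1 stretch of 231 bases held 18 CG pairs and the Calcrl stretch of 111 bases held none. Over 32851 promoters the 250 bases before the start held a median of 6 CG pairs (quartiles 2 and 16). Both printed stretches are shorter than that, so their counts are not directly comparable. The TCF/LEF core was searched on both strands in the 250 bases before each start, as CTTTGAA, or with its last base changed as CTTTGAT, or in the further form CTTTGTT. They occurred in 12 percent of 32851 promoters of the table and in 0 of the 4 found for these genes. This says only that those letters are not in these windows.

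Inpp4b lay at 5.90, 5.64 and 5.76 in beta-catenin cells and at 5.67, 5.73 and 5.94 in ICAT cells, against 8.10, 7.95 and 8.01 in control cells. The arrays of both lines interleaved and stood well apart from control. Its mean was 5.76 ± 0.132 in beta-catenin cells, 5.78 ± 0.145 in ICAT cells and 8.02 ± 0.0751 in control cells (SD, n = 3 each). Expression was thus 4.77-fold lower in beta-catenin and 4.72-fold lower in ICAT cells than in control. By size the decrease ranked 47 among decreases in beta-catenin cells and 2 among those in ICAT cells. Beta-catenin minus ICAT was -0.01 on the log2 scale (95% interval -0.21 to 0.19; limma, adjusted p = 0.928). That interval leaves room for a small difference either way. The other Inpp4b probe set was dim, at means of 4.92, 5.01 and 5.15 in beta-catenin, ICAT and control cells, and its ICAT arrays overlapped with control, so the size of the decrease rests on 1 probe set.

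Other enzymes of inositol lipid signalling were unevenly affected. Of 33 listed phosphatases, PI3-kinase subunits and kinases, 30 were tested. In beta-catenin cells 10 rose and 5 fell, with a median log2 difference of -0.06 against -0.03 over all genes. In ICAT cells 3 rose and 5 fell (median 0.01, against -0.01 over all genes). Over all tested genes 34.9 percent were called with beta-catenin and 37.2 percent with ICAT. Synj2, which encodes the inositol phosphatase synaptojanin 2, fell 1.89-fold in beta-catenin cells (8.12 ± 0.063 against 9.04 ± 0.0327 in control; adjusted p = 5.4e-07). In the ICAT line Synj2 lay at 9.02 ± 0.0568 (adjusted p = 0.798), and the lines differed (adjusted p = 9.41e-07). Ocrl, the inositol phosphatase mutated in Lowe syndrome, was also 1.77-fold lower in beta-catenin cells (adjusted p = 1.2e-05) and lay at 7.89 in ICAT and 7.81 in control cells (adjusted p = 0.51). The other Ocrl probe sets did not agree on ICAT cells, where one was called higher by 0.37 in a fit over all probe sets (adjusted p = 0.0441).

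The regulatory subunit gene Pik3r1 rose in both lines, 1.66-fold with beta-catenin (adjusted p = 0.000549) and 1.53-fold with ICAT (adjusted p = 0.00182). Pik3r3 rose 1.71-fold with beta-catenin (adjusted p = 1.44e-05) and was at 6.96 in ICAT and 6.97 in control cells (adjusted p = 0.958). The catalytic subunit gene Pik3cb fell 1.54-fold in ICAT cells (adjusted p = 0.00839), with 7.38, 7.66 and 8.13 on the ICAT arrays, against 8.37, 8.27 and 8.40 in control. Among the genes under the 1.5-fold limit, the paralogue Inpp4a, picked out after its values were seen, rose in both lines. It was 1.35-fold higher with beta-catenin (adjusted p = 0.000176) and 1.40-fold higher with ICAT (adjusted p = 9.21e-05).

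Calcrl lay at 3.54, 3.61 and 3.56 in beta-catenin cells and at 4.19, 4.63 and 5.0 in ICAT cells, against 6.75, 6.61 and 6.79 in control cells. The highest ICAT array just reached the limit of 5, the other transfected arrays lay under it, and all control arrays were above it. With arrays under 5 set to 5, Calcrl was at least 3.28-fold lower in both lines. The deposited means were 3.57 ± 0.0349 in beta-catenin, 4.61 ± 0.408 in ICAT and 6.71 ± 0.0955 in control cells (SD, n = 3 each). Beta-catenin minus ICAT was -1.03 (adjusted p = 0.000279), a difference between values under the limit, for which no fold is given. The other 2 Calcrl probe sets were under 5 on every array, with differences from control between -0.18 and 0.04.

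Calcrl needs a RAMP partner at the cell surface, and Ramp3 was also lower in both lines. Ramp3 had 8.75, 8.98 and 9.04 in beta-catenin cells and 9.69, 9.75 and 9.58 in ICAT cells, against 10.37, 10.40 and 10.39 in control cells. The 3 groups did not overlap. Ramp3 fell 2.75-fold with beta-catenin (adjusted p = 1.36e-07) and 1.64-fold with ICAT (adjusted p = 5.42e-05), and the lines differed by -0.75 on the log2 scale (adjusted p = 2.87e-05). Ramp1 and Ramp2 did not pass in either line, with means between 6.07 and 6.63 in every group.

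The ligand gene Adm, for adrenomedullin, had 6.46, 6.47 and 6.46 in beta-catenin cells and 8.06, 8.65 and 8.45 in ICAT cells, against 8.21, 8.19 and 8.18 in control cells. Adm was 3.32-fold lower in beta-catenin cells (adjusted p = 5.97e-07), did not pass in ICAT cells (log2 difference 0.19, adjusted p = 0.25) and differed between the lines (adjusted p = 3.76e-07). Without ICAT replicate 1 it passed as higher in ICAT cells (0.36, adjusted p = 0.00275). Of 8 tested genes of the calcitonin peptide family, 1 rose and 3 fell with beta-catenin. With ICAT 2 rose and 2 fell. Their medians were -0.13 and -0.03, against -0.03 and -0.01 over all genes, of which 34.9 and 37.2 percent were called. Among those called, Ackr3, a scavenging receptor for adrenomedullin and chemokines, fell 1.40-fold with beta-catenin (adjusted p = 0.000127) and rose 1.45-fold with ICAT (adjusted p = 7.37e-05).

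Endothelial markers were set beside Calcrl, since endothelial cells express it strongly. Of 8 markers 6 passed the filter, 2 of them lower in beta-catenin and 1 lower in ICAT cells, with the others not called. Over all tested genes 15.4 percent were lower with beta-catenin and 18.5 percent with ICAT. The mean over the list was 5.53 to 5.68 on beta-catenin arrays, 5.72 to 5.83 on ICAT arrays and 5.79 to 5.88 on control arrays. Cdh5 and Tek did not pass the filter, and Pecam1 lay at 5.13 to 5.19 in group means. Kdr lay at 7.41 to 7.50, Esam at 6.59 to 6.78 and Cldn5 at 6.27 to 6.46. Tie1 was the most changed, at 5.08 in beta-catenin, 5.79 in ICAT and 6.09 in control cells, and its part in the Calcrl result was not tested.

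Ccbe1 had 6.54, 6.73 and 6.83 in beta-catenin cells and 7.80, 7.74 and 7.66 in ICAT cells, against 9.72, 9.70 and 9.84 in control cells. The 3 groups were fully apart. Means were 6.70 ± 0.143 in beta-catenin, 7.73 ± 0.0749 in ICAT and 9.76 ± 0.0771 in control cells (SD, n = 3 each), so that Ccbe1 was 8.31-fold and 4.06-fold below control. Ccbe1 was 2.05-fold lower in beta-catenin than in ICAT cells (log2 difference -1.03, 95% interval -1.21 to -0.85; limma, adjusted p = 2.55e-06). A further probe set had 5.41 ± 0.133 in beta-catenin, 5.98 ± 0.159 in ICAT and 8.55 ± 0.105 in control cells. It gave 8.85-fold and 5.95-fold decreases and the same order of lines (-0.57, adjusted p = 0.000811 over all probe sets). On a dimmer probe set both lines were under 5 and control at 5.58 ± 0.0915, at least 1.5-fold lower in each. The last was near 4 in every group.

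Vegfc, the gene of the growth factor that Ccbe1 helps to mature, went the other way. It had 7.30, 7.39 and 7.96 in beta-catenin cells and 5.40, 5.38 and 5.25 in ICAT cells, against 4.53, 4.50 and 4.26 in control cells. All control arrays were under 5, so Vegfc was kept in the tests only through its transfected arrays. It had to be higher there than in control to be tested, which limits its p-values against control. With that limit it rose at least 5.87-fold with beta-catenin (adjusted p = 3.57e-08) and at least 1.27-fold with ICAT (adjusted p = 0.000525). Vegfc was 4.63-fold higher in beta-catenin than in ICAT cells (adjusted p = 7.05e-07). Both other Vegfc probe sets were also higher with beta-catenin, while with ICAT one of them lay under 5 in ICAT and control cells, where the order is not sure.

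Vegfd, a related lymphatic growth factor gene, had 9.22, 9.07 and 9.28 in beta-catenin cells and 8.17, 7.89 and 8.08 in ICAT cells, against 7.24, 7.26 and 7.47 in control cells. It rose 3.64-fold with beta-catenin (adjusted p = 5.67e-08) and 1.65-fold with ICAT (adjusted p = 0.000119), and was 2.21-fold higher in beta-catenin than in ICAT cells (adjusted p = 3.28e-06). The groups of both growth factor genes were fully apart, in the reverse order of Ccbe1. Of 8 tested genes of the VEGF-C axis, 2 rose and 1 fell with beta-catenin. With ICAT 3 rose and 2 fell. The shares called over all genes were 34.9 percent with beta-catenin and 37.2 percent with ICAT. The co-receptor gene Nrp2 was the one that fell with beta-catenin, by 1.18-fold (adjusted p = 0.021), and it fell 1.25-fold with ICAT (adjusted p = 0.00346). The beta-catenin call of Nrp2 was lost in 7 of 17 alternatives (adjusted p = 0.0532 to 0.74), among them without any 1 of the beta-catenin arrays, without control replicate 2 or 3 and with arrays shifted to one median. With averaged probe sets Nrp2 was at 0.03 with beta-catenin and 0.02 with ICAT, not called in either (adjusted p = 0.74 and 0.851). The receptor genes Flt4 and Kdr did not pass in either line, and the protease gene Adamts3 was under 5 on every array.

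**Figure D3:**
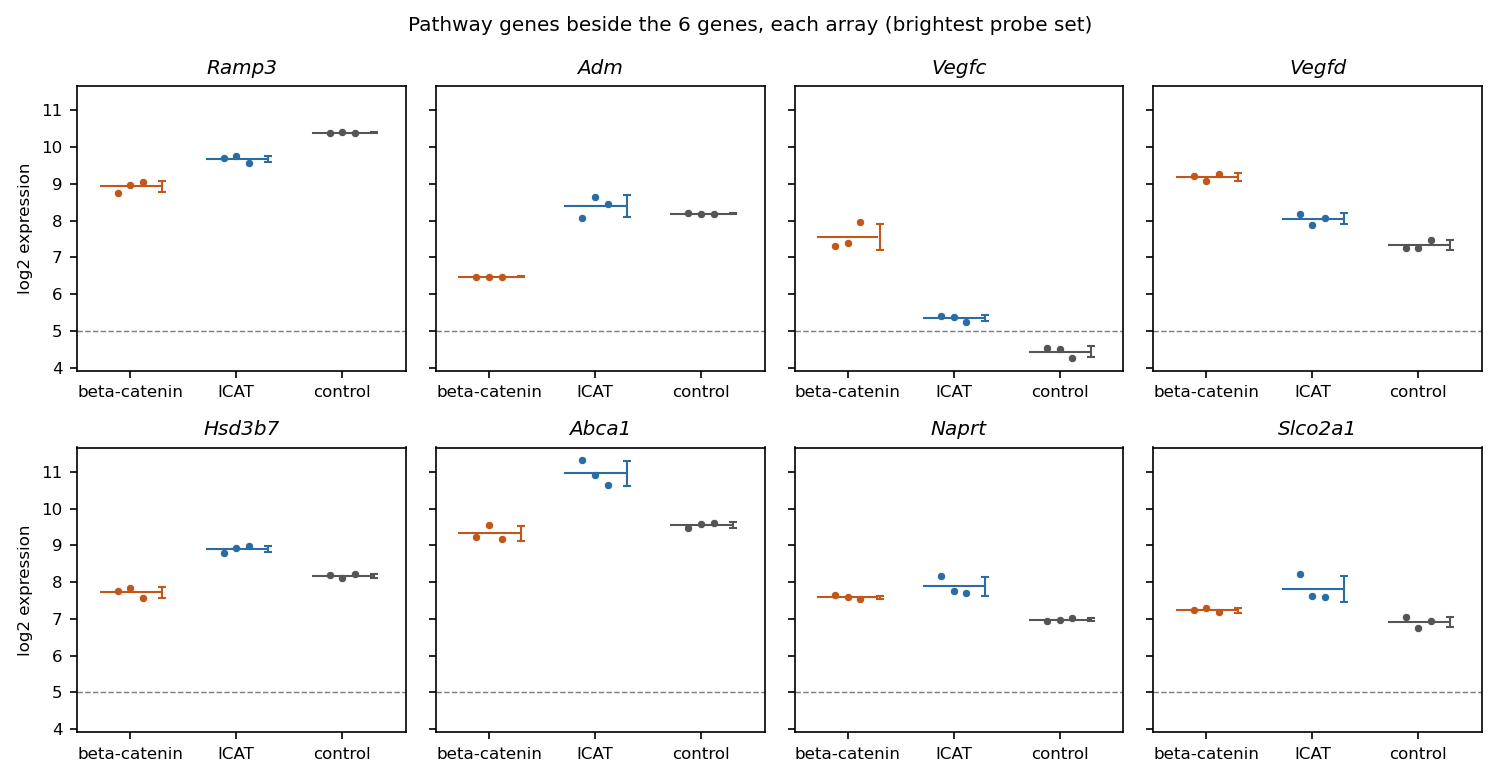
Log2 expression (y axis, shared) of 8 genes from the pathways of the members on every array (points) in beta-catenin, ICAT and control cells, with group means (lines), SD (bars, n = 3) and the filter limit of 5 (dashed). Ramp3 is lowest and Vegfc and Vegfd are highest in beta-catenin cells, with ICAT cells between those and control, while Abca1 and Hsd3b7 are highest in ICAT cells.

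Cyp7b1 had 7.22, 7.52 and 7.27 in beta-catenin cells and 7.96, 6.59 and 6.97 in ICAT cells, against 3.99, 4.03 and 3.99 in control cells. Control arrays were all under 5, and the beta-catenin arrays fell inside the range of the ICAT arrays. With control set to 5, Cyp7b1 was at least 5.06-fold higher in beta-catenin cells (7.34 ± 0.159) and at least 4.51-fold higher in ICAT cells (7.17 ± 0.703). A probe set with the suffix s, whose probes may match more than 1 transcript, gave 7.19 ± 0.0895 in beta-catenin, 6.94 ± 0.667 in ICAT and 4.20 ± 0.222 in control cells. The dimmest probe set stayed under 4 on every array. Beta-catenin minus ICAT was 0.17 (95% interval -0.40 to 0.73; adjusted p = 0.658). This rested on ICAT replicate 1. Without it the difference was 0.56 and passed (adjusted p = 0.00301), and without ICAT replicate 2 it was -0.12 (adjusted p = 0.733).

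Among 19 tested oxysterol and bile acid genes, beta-catenin cells had 4 that rose and 3 that fell (median -0.06, against -0.03 over all genes). In ICAT cells 7 rose and the others were not called (median 0.18, against -0.01). Of all genes 34.9 percent were called with beta-catenin, and 18.7 percent rose and 18.5 percent fell with ICAT. Between the lines 8 of the 19 were called, all lower in beta-catenin cells, against 17.9 percent of all genes lower and 40.4 percent called either way. Abca1, the cholesterol exporter and LXR target, had 9.24, 9.55 and 9.18 in beta-catenin cells and 11.31, 10.92 and 10.64 in ICAT cells, against 9.47, 9.59 and 9.60 in control cells. Only its ICAT arrays stood apart. Abca1 rose 2.65-fold with ICAT (adjusted p = 2.82e-05), did not pass with beta-catenin (adjusted p = 0.274) and was 3.10-fold lower in beta-catenin than in ICAT cells (adjusted p = 7.02e-06). Its other probe sets were dim, and the one called as higher with ICAT over all probe sets (adjusted p = 0.0109) had group means under 5, where the order is not sure.

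Hsd3b7, whose enzyme acts after Cyp7b1 in bile acid synthesis, moved oppositely in the lines. It was 1.37-fold lower with beta-catenin (7.72 ± 0.143 against 8.17 ± 0.0617 in control; adjusted p = 0.00113) and 1.66-fold higher with ICAT (8.90 ± 0.095; adjusted p = 4.94e-05). The lines differed 2.27-fold (adjusted p = 1.01e-06). Cyp39a1, another oxysterol hydroxylase gene, rose 1.85-fold with ICAT (adjusted p = 4.86e-05) and 1.26-fold with beta-catenin (adjusted p = 0.0242). The beta-catenin call of Cyp39a1 was lost without beta-catenin replicate 1, control replicate 2 or control replicate 3 (adjusted p = 0.0858, 0.106 and 0.0757). Amacr, a racemase of bile acid side chains, rose 2.01-fold with beta-catenin (adjusted p = 9.93e-06) and 1.68-fold with ICAT (adjusted p = 0.000127).

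Bst1 had 8.24, 8.29 and 8.15 in beta-catenin cells and 9.98, 9.20 and 9.21 in ICAT cells, against 6.34, 6.34 and 6.41 in control cells. Every ICAT array lay above every beta-catenin array, and those lay above control. Means were 8.23 ± 0.0714 in beta-catenin, 9.47 ± 0.448 in ICAT and 6.36 ± 0.0431 in control cells (SD, n = 3 each), which put Bst1 3.64-fold and 8.59-fold above control. Bst1 was 2.36-fold lower in beta-catenin than in ICAT cells (log2 difference -1.24, 95% interval -1.61 to -0.87; adjusted p = 0.00013), and 1.97-fold lower without ICAT replicate 1. Its other probe set showed the same order, at 7.30 ± 0.131 in beta-catenin, 8.29 ± 0.489 in ICAT and 4.83 ± 0.0613 in control cells (lines apart by -0.99, adjusted p = 0.00122 over all probe sets). Bst1 was the member with its greater change in ICAT cells.

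NAD metabolism genes beside Bst1 went both ways. Of 24 tested, 4 rose and 3 fell with beta-catenin (median -0.05). With ICAT 4 rose and 6 fell (median -0.02). Beside these, 34.9 percent of all genes were called with beta-catenin and 37.2 percent with ICAT. Naprt, which makes NAD from nicotinic acid, had 7.64, 7.59 and 7.55 in beta-catenin cells and 8.17, 7.75 and 7.71 in ICAT cells, against 6.93, 6.98 and 7.03 in control cells. It stood in the same order as Bst1 and rose 1.53-fold (adjusted p = 0.000724) and 1.87-fold (adjusted p = 5.91e-05), and the lines were not called apart (adjusted p = 0.0503). Nmnat3, a mitochondrial NAD synthase gene, rose 1.73-fold with beta-catenin (adjusted p = 0.000657) and 1.43-fold with ICAT (adjusted p = 0.00901), the second lost when its probe sets were averaged (adjusted p = 0.166).

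The NAD kinase gene Nadk fell in both lines, 1.61-fold with beta-catenin (adjusted p = 2.11e-05) and 1.38-fold with ICAT (adjusted p = 0.000501), and its other probe set fell too. Parp1, a DNA repair enzyme that consumes NAD, rose 1.23-fold with beta-catenin (adjusted p = 0.0115) and fell 1.52-fold with ICAT (adjusted p = 0.000118). The lines differed 1.86-fold (adjusted p = 5.17e-06).

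Markers of stromal and blood cells were set beside Bst1. Of 9 fibroblast markers 8 passed the filter, with 2 higher and 3 lower in beta-catenin cells and 6 higher in ICAT cells. For this and the following lists, 19.6 percent of all tested genes were higher and 15.4 percent lower with beta-catenin. With ICAT the shares were 18.7 percent higher and 18.5 percent lower. Their mean was 8.80 to 9.0 on beta-catenin arrays, 9.58 to 9.77 on ICAT arrays and 8.79 to 8.86 on control arrays. Above control in both lines were Pdgfra, at 10.62 in beta-catenin, 10.60 in ICAT and 8.58 in control cells, and Col1a1, at 7.25, 7.98 and 6.12. Lower with beta-catenin was Col1a2, at 10.78 in beta-catenin, 13.62 in ICAT and 12.17 in control cells. Vim and Col3a1 were above 12 in every group, and the part of these markers in the Bst1 result was not tested. Leukocyte markers averaged 5.59 to 5.64 on beta-catenin arrays, 5.67 to 5.82 on ICAT arrays and 5.78 to 5.82 on control arrays. Ptprc and Itgam did not pass the filter. Of the 6 that passed, 1 was lower in beta-catenin cells and the others were not called. Csf1r lay at 7.11 to 7.25 and Cd3e at 6.98 to 7.08 in group means. Cd68 was at 5.50 in beta-catenin, 6.27 in ICAT and 6.05 in control cells. Among epithelial markers 6 of 8 passed, with 4 higher in ICAT cells and 0 called in beta-catenin cells. Krt18 was at 6.79 in beta-catenin, 8.51 in ICAT and 7.23 in control cells, and Krt8 at 6.41, 7.34 and 6.45. Epcam lay at 7.48 to 7.52 in group means, while Cdh1 stayed under 5 on every array. The list averaged 6.14 to 6.19 on beta-catenin arrays, 6.48 to 6.72 on ICAT arrays and 6.21 to 6.29 on control arrays.

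Slco4a1 had 8.44, 8.81 and 8.85 in beta-catenin cells and 9.22, 9.64 and 9.74 in ICAT cells, against 11.35, 11.40 and 11.35 in control cells. The 3 groups did not overlap, and control arrays spanned only 0.05. Means were 8.70 ± 0.226 in beta-catenin, 9.53 ± 0.276 in ICAT and 11.37 ± 0.0295 in control cells (SD, n = 3 each), so Slco4a1 was 6.36-fold and 3.57-fold below control. It was 1.78-fold lower in beta-catenin than in ICAT cells (log2 difference -0.83, 95% interval -1.13 to -0.53; adjusted p = 0.00048). This probe set has the suffix x, meaning that some of its probes may match other sequences. The probe set without that suffix gave 7.85 ± 0.11 in beta-catenin, 8.35 ± 0.241 in ICAT and 10.14 ± 0.0124 in control cells. Its decreases were 4.90-fold and 3.46-fold, and the lines were again apart (-0.50, adjusted p = 0.00364 over all probe sets).

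Of 14 tested anion transporter and thyroid hormone genes, 5 fell in beta-catenin cells and the others were not called (median -0.08). In ICAT cells 2 rose and 2 fell (median 0.00). Of all genes 15.4 percent fell and 19.6 percent rose with beta-catenin, and 37.2 percent were called with ICAT. Slco2a1, the prostaglandin transporter gene, rose 1.88-fold with ICAT (7.82 ± 0.358 against 6.91 ± 0.141 in control; adjusted p = 0.000501) and was at 7.23 ± 0.0593 in beta-catenin cells (adjusted p = 0.116). It was called higher with beta-catenin under array weights (adjusted p = 0.00528), with 6 arrays only (adjusted p = 0.00864) and without ICAT replicate 1 (adjusted p = 0.00678). Slco5a1 fell 1.65-fold with ICAT (adjusted p = 0.000391) and was at 6.93 in beta-catenin and 6.98 in control cells (adjusted p = 0.733). Slc7a5, an amino acid transporter gene that also carries thyroid hormone, fell in both lines, 1.62-fold (adjusted p = 0.00713) and 1.57-fold (adjusted p = 0.00949). The thyroid hormone receptor gene Thra rose 1.55-fold with ICAT (adjusted p = 0.00157) and did not pass with beta-catenin (adjusted p = 0.663). The beta-catenin count of this list was 3 with averaged probe sets and without beta-catenin replicate 1, beta-catenin replicate 2 or control replicate 2.

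**Figure D4:**
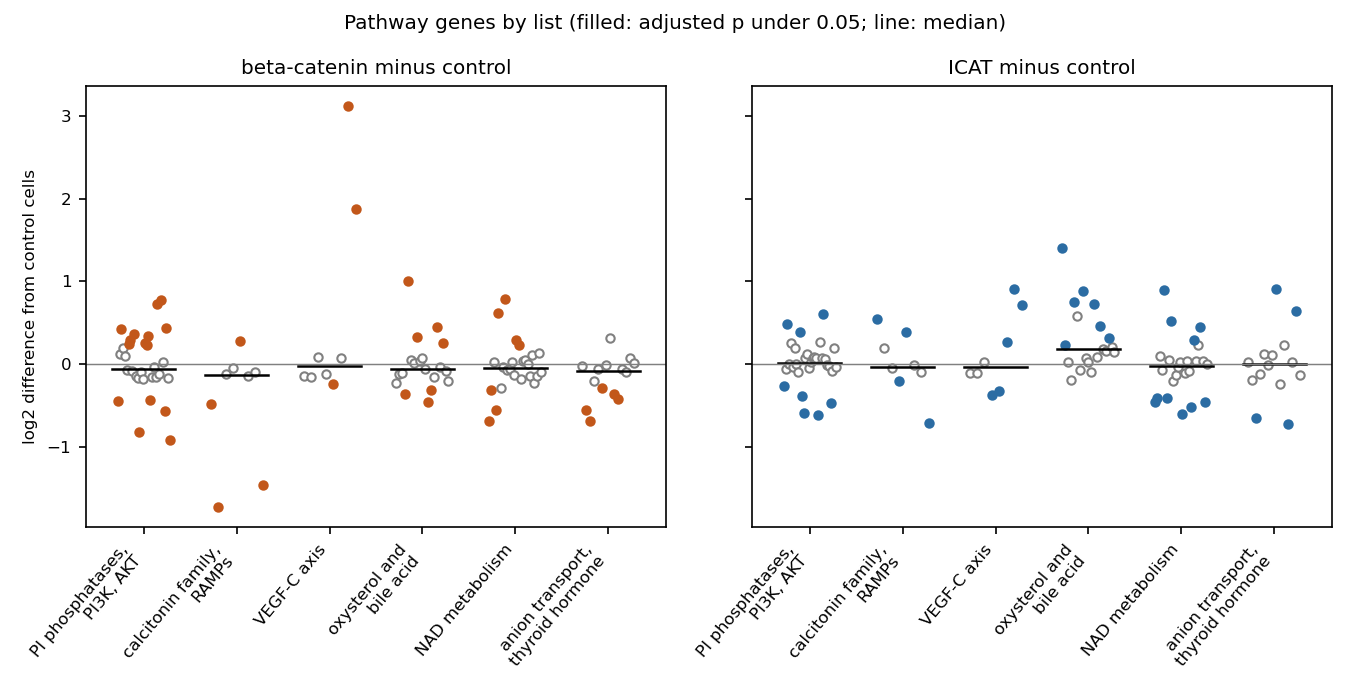
Log2 difference from control cells (y axis) of the tested genes of the 6 pathway lists (x axis), in beta-catenin cells (left) and ICAT cells (right), with 1 point per gene, filled where the adjusted p was under 0.05, and a line at the list's median. Vegfc at 3.12 and Vegfd at 1.87 are the highest points for beta-catenin, and Abca1 at 1.41 is the highest for ICAT.

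Over the 6 lists together 103 of 130 genes were tested. In beta-catenin cells 21 rose and 20 fell, which is 39.8 percent called, against 34.9 percent of all genes. In ICAT cells 21 rose and 17 fell, 36.9 percent, against 37.2 percent of all genes. The pathway genes were thus called at a share near that of all genes, and those changed at least 2-fold in a line were Ramp3, Adm, Vegfc, Vegfd, Amacr and Abca1.

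Between the transfected lines, 4 of the 6 members were called and all 4 were lower in beta-catenin cells, against 17.9 percent of all genes lower, 22.5 percent higher and 40.4 percent called either way. One of the 4 is Calcrl, whose values in both lines lay near or under 5, so that its order is not sure. Ccbe1 and Bst1 were at least 2-fold apart, against 3.99 percent of all genes. The groups of arrays were apart for the same 4, against 47.6 percent of all tested genes. The members had been chosen from distances to control on these same arrays, so this difference is not independent of the choice. For Ccbe1 and Slco4a1 the lower level in beta-catenin cells was the greater distance from control, and for Bst1 it was the smaller. Adjusted p stayed under 0.05 for these 4 under each alternative in which the gene was tested, at most 0.00387.

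**Figure D5:**
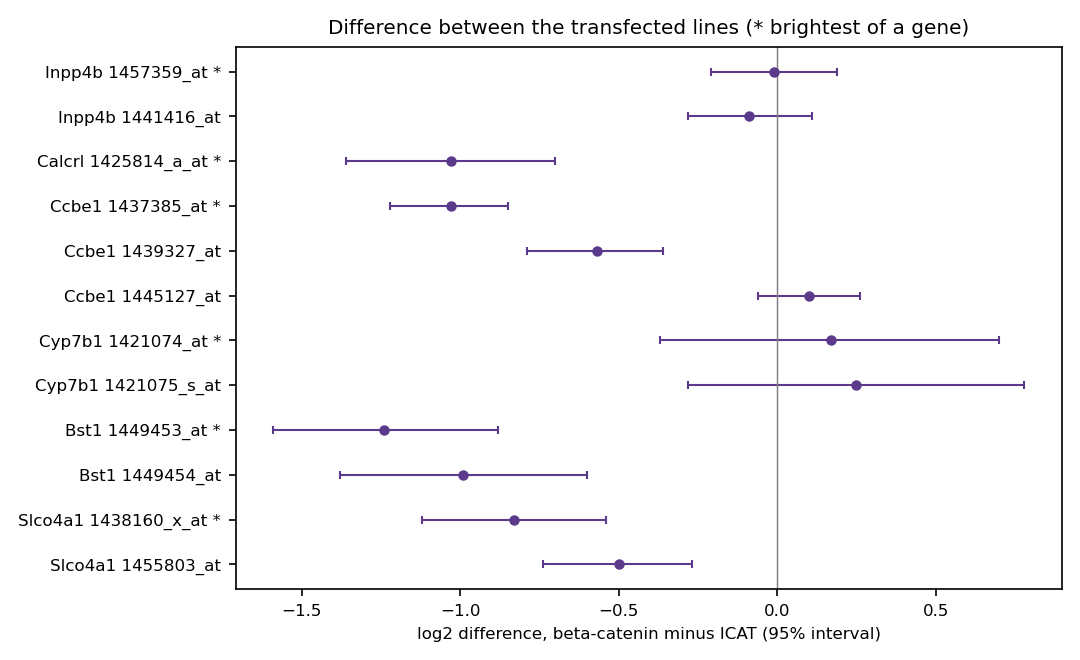
Log2 difference, beta-catenin minus ICAT cells (x axis), of the 12 probe sets that passed the filter, with 95% intervals from a limma fit over all probe sets and stars on the brightest probe set of a gene. The intervals of Inpp4b, Cyp7b1 and the dim Ccbe1 probe set include 0, and those of Bst1, Slco4a1, Calcrl and the 2 brighter Ccbe1 probe sets lie below it.

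Genes with the most similar profile were taken from 939 other genes with an SD of at least 0.5 over the 9 arrays, by Pearson correlation. The values describe these arrays, which share groups and normalization. Closest to Inpp4b was Apoc2, an apolipoprotein gene (r = 0.9929), with means of 5.13 in beta-catenin, 5.13 in ICAT and 9.60 in control cells. Fgfbp3 (0.9853) and Lonrf3 (0.9821) followed. Both lines lay at like levels in each.

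Calcrl and Slco4a1 shared neighbours, though Calcrl lay near or under 5 in both lines, where its order is not sure. Cavin2, a caveola component gene, had r = 0.9946 with Calcrl and 0.9893 with Slco4a1, at 10.36 in beta-catenin, 10.78 in ICAT and 11.49 in control cells. Btbd11 had r = 0.9884 and 0.9927, at 7.21, 8.11 and 9.57 in the same groups. Plau, the urokinase gene, was next for Calcrl (0.9864) and Dynap for Slco4a1 (0.9892). Ccbe1 was closest to Kctd4 (0.9908), at 6.27 in beta-catenin, 7.48 in ICAT and 9.16 in control cells, then Zfp955b (0.9833) and the noncoding Snhg12 (0.9792).

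Cyp7b1 was closest to Rnd3 (r = 0.9948), the secreted protein gene Fstl1 (0.9944) and the ribonuclease gene Rnase4 (0.9942). These matches use Cyp7b1 control values that were all under 5. Fstl1 lay at 12.06 in beta-catenin, 11.92 in ICAT and 9.98 in control cells. Bst1 was closest to Tmem176a (0.9942), the interferon-inducible Ifi202b (0.9939) and the tapasin gene Tapbp (0.9933). Tmem176a lay at 10.87 in beta-catenin, 11.50 in ICAT and 10.19 in control cells, the same order as Bst1.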

How the data were processed

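Total RNA of 9 samples was amplified from the 3′ end, labelled with biotin and read on Affymetrix arrays, per the labels' protocols. The deposited values are log2 expression. The submitters' processing notes name RMA and affy, with no version. Quantile normalization, a step of RMA, would hide a shift of all genes one way, and differences of dim probe sets come out too small. No detection calls were used, so 5 is a chosen limit. Precision is limited by the number of arrays. The labels call the samples biological replicates without naming separate transfections, so the p-values cover the spread among these samples, which may be technical.

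Of 45037 probe sets, 34945 had 1 gene symbol by the platform annotation, 932 several and 9160 none. A RefSeq table gave current symbols by Entrez identifier for all but 204. The brightest probe set stood for a gene. Limma 3.58.1 in R 4.3.3 fitted a mean per group to all 9 arrays (6 residual and 5.03 prior degrees of freedom), with two-sided tests and Benjamini-Hochberg adjustment over 15235 genes. All adjusted p-values are from it. Secondary probe sets were tested in a fit over all probe sets. An exact permutation test of 3 against 3 cannot give a p under 0.1. Where a group's mean lay under 5, 5 replaced its lower arrays, which makes the fold a lower limit.

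The members, lists and tests were chosen with earlier results of these data known. Pathway genes named were those called with at least 1.5-fold in a comparison with control, up to 5 per list, and further ones are said to be picked afterwards or fill a small count. The profile search named 3 genes per member. Alternatives were no filter, a filter of 7, array medians, array weights, 6 arrays only, a replicate block, trend and robust moderation, averaged probe sets and leaving out each array. Replicate numbers were checked for pairing by the correlation of deviations from group means, which exceeded 0.1 in 5 of 9 pairs (-0.129 to 0.41). No label says that a replicate number marks a shared day or culture, so the main fit had no block. Scripts were tested on simulated data. Genes listed without a single-gene probe set were not analysed here.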

Additional observations from a re-analysis of the deposited data

Results flagged for a closer look

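For 4 of the 6 genes expression differed between the transfected lines by the test of the difference itself (limma, beta-catenin minus ICAT). Bst1 differed by -1.24 on the log2 scale (adjusted p = 0.00013), Ccbe1 by -1.03 (adjusted p = 2.55e-06), Calcrl by -1.03 (adjusted p = 0.000279) and Slco4a1 by -0.83 (adjusted p = 0.00048). For Calcrl both means lay under the limit of 5, so its order between lines is not sure and its test compares dim values. Bst1 was above control and further so in ICAT cells, and Ccbe1 and Slco4a1 were below control and further so in beta-catenin cells.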

How the results depend on the processing

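With array weights 8324 genes were called for beta-catenin against control, against 5321 without, and the cause was not tested. Over the other alternatives and single arrays left out, the counts for beta-catenin against control (4285 to 6218 with an array left out), ICAT against control (4587 to 6153) and beta-catenin against ICAT (5182 to 6981) stayed within 1.5 times. Of the members, 4 to 5 were called between the lines with an array left out, the fifth being Cyp7b1 without ICAT replicate 1, and 3 with the filter of 7, which removes Calcrl. With the replicate block 4 members were called, and 5524, 5853 and 6389 genes in the 3 comparisons. The replicate numbers are not known to pair the arrays. The block added the calls of Amacr (adjusted p = 0.0208) and Naprt (adjusted p = 0.0444) between the lines. Both were also called under other alternatives, among them the filter of 7, array weights, and trend and robust moderation. Averaging the probe sets of a gene brought the Calcrl difference between lines to -0.34 and that of Ccbe1 to -0.40, since dim probe sets enter the mean. It also brought the differences from control in beta-catenin and ICAT cells to -1.24 and -1.19 for Inpp4b, -1.09 and -0.75 for Calcrl, -1.83 and -1.43 for Ccbe1 and 2.03 and 1.88 for Cyp7b1, so that Calcrl with ICAT was under 2-fold. Bst1 with beta-catenin was at 2.17. Among 21 named pathway genes in 3 comparisons, 33 changes of call arose over 17 alternatives and 0 reversed in direction. Pik3cb between the lines lost its call in 5 of them and Nadk in 6. Values under 5 are limited by signal and have no sure order.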

Other observations

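Within the ICAT group single arrays lay apart for several members, given here as values, for replicate 1 first. Cyp7b1 was at 7.96 there and averaged 6.78 on the other ICAT arrays, and Bst1 was at 9.98 and averaged 9.21. Slco4a1 was at 9.22 against an average of 9.69 on the other ICAT arrays and Inpp4b at 5.67 against 5.83, both further from control. Calcrl, near or under the limit of 5 on the ICAT arrays, was at 4.19 against 4.81. Ccbe1 was at 7.80 against 7.70, nearer to control. Among pathway genes Abca1 (11.31), Naprt (8.17), Slco2a1 (8.23) and Thra (9.14) had their highest ICAT value on this array. Adm (8.06), Pik3cb (7.38) and Slc7a5 (9.90) had their lowest. Replicate 3 also lay apart for some members. There Inpp4b was at 5.94 against an average of 5.70 on the other ICAT arrays. Calcrl was at 5.0 against 4.41 and Ccbe1 at 7.66 against 7.77. The labels give no batch or scan order for the arrays, and the groups of 3 are too small for a test of a single array.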
